A study of Mus musculus with 8 samples.

Results

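The early response of fibroblasts that lack the RelA and cRel subunits of NF-kB was read from 2 of the 8 libraries in the series. The first came from crel-/-rela-/- primary mouse embryonic fibroblasts (KO) given tumour necrosis factor (TNF, 10 ng/ml) for 15 min. The second came from fibroblasts of the same genotype at 0 min, labelled control. The wild-type (WT) cells at 15 min and at 0 min served for comparison, and the KO and WT libraries at 45 and 60 min were used for the later course. All 8 libraries came from cells of the C57BL/6 strain at the embryo stage, starved of serum overnight in 0.5% calf serum. Each genotype and time had 1 library, so no p-values are given, and each ratio of 15 min to 0 min carries an interval of 95% that covers counting error only. No untreated library was taken at 15 min, so an effect of TNF cannot be told apart from one of time or handling. The labels do not say how the alleles were made, nor whether the cells came from 1 embryo or from several. Of 45706 gene rows, 12951 had at least 20 counts in the higher library of the KO pair and were compared.

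Chromatin-associated RNA is the fraction that stays with the DNA when nuclei are washed, and it is rich in transcripts that are still being made. A change in it therefore shows sooner than a change in total RNA. TNF acts through its receptor on 2 main branches. One frees NF-kB from its inhibitors, so that RelA and cRel enter the nucleus and switch on chemokine, adhesion and feedback genes. The other runs through MAP kinases, which act on transcription factors already present in the nucleus. Those factors switch on the immediate early genes, such as Fos, Jun and the EGR genes, within minutes and without new protein.

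The libraries held 12359817 to 15607331 counts, of which 56.0 to 69.0% lay in 3 gene models (Gm26917, Gm42418 and Gm23935) that were left out of every total. That left 4213829 counts in the KO 15 min library and 6076931 in the KO 0 min library, the lowest and the highest of the 8. Levels are CPM, counts scaled to a fixed total of this remainder after TMM scaling. In a ratio of 15 min to 0 min the median of all compared genes was 0.00 on the log2 scale in KO cells, and also 0.00 in WT cells. Fibroblast matrix genes summed to 38946 CPM in the KO 15 min library and 38370.5 CPM in the KO 0 min library, against 36620 and 45893 CPM in WT at 15 and 0 min. Leukocyte genes summed to 19.6 to 24.6 CPM over the KO libraries and 183 to 254 CPM over the WT libraries. Xist was at 2.52 to 6.10 CPM in the KO libraries and at 3403 to 4149 CPM in the WT libraries, so that sex composition differs between the genotypes but not within the KO pair. Whether leukocytes or sex take part in a difference between the genotypes was not tested.

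The targeted genes were counted in the KO libraries. Rela (chromosome 19, 5637483 to 5648130; all coordinates are mm10) had 306, 241, 291 and 324 counts in KO at 0, 15, 45 and 60 min, against 324, 406, 704 and 589 in WT. Rel (chromosome 11, 23736847 to 23770970) had 478, 308, 538 and 633 counts in KO and 151, 173, 805 and 506 in WT over the same times. A count over a whole gene does not show whether the transcript can make the protein, so these values check neither deletion. Within the KO pair the log2 ratio of 15 min to 0 min was 0.22 (-0.03 to 0.47) for Rela and -0.07 (-0.28 to 0.14) for Rel.

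The KO cells had a short list of genes that stood higher at 15 min, led by immediate early genes. A gene was called higher or lower when it differed at least 2-fold and its interval excluded equality. By this rule 90 genes (0.695% of those compared) were higher and 212 (1.64%) lower at 15 min in KO cells. The same rule gave 127 higher genes (0.975%) and 180 lower genes (1.38%) among 13031 compared in WT cells. With the total of all genes as the scale, which lowers the median of all genes by 0.35, the KO split was 33 higher and 566 lower. The intervals are not adjusted for the number of genes, and 51 of the 90 had under 50 counts in both libraries. Among the 5233 genes with at least 400 counts in the pair together, 24 were higher and 3 lower, while the central 90% of genes lay between -0.25 and 0.35 on the log2 scale. All of those 3 lower genes, Acan, Col2a1 and Col11a2, were cartilage genes that were high in the KO 0 min library alone.

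**Figure D1:**
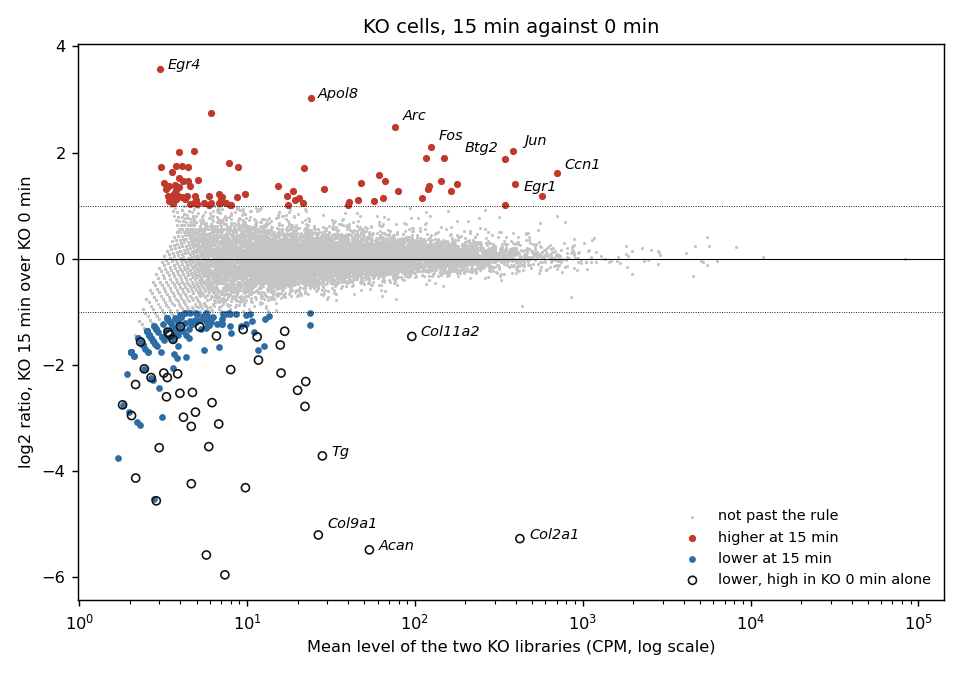
Log2 ratio of the KO 15 min library over the KO 0 min library (vertical axis) against the mean level of both libraries in CPM (log scale) for each compared gene with counts in both. Dotted lines mark 2-fold. Red points are the 90 genes called higher and blue points the lower genes. Open circles are the lower genes that were high in the KO 0 min library alone, among which Col2a1, Acan and Col9a1 lie lowest at their level.

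The AP-1 genes code for the subunits of a transcription factor that pairs FOS proteins with JUN proteins or with ATF relatives. Of 10 AP-1 genes compared, 5 were higher and none lower, with a list median of 1.11 on the log2 scale. Fos (chromosome 12, 85473890 to 85477273) was at 47.3, 203, 26.1 and 12.7 CPM in KO at 0, 15, 45 and 60 min, and at 38.5, 85.3, 13.8 and 11.7 CPM in WT. The KO 15 min library thus stood above all of the other 7, and at 60 min both genotypes were below their 0 min level. The log2 ratio of 15 min to 0 min was 2.10 (1.91 to 2.29) in KO and 1.15 (0.91 to 1.39) in WT. Jun (chromosome 4, 95049034 to 95052222), the main partner of FOS, was at 152, 622, 344 and 208 CPM over the 4 times in KO and at 152, 270.3, 195 and 163 CPM in WT. Its ratio of 2.03 (1.92 to 2.14) in KO was called higher, while 0.83 (0.71 to 0.96) in WT was short of 2-fold. Jun overlaps the antisense gene Junos, and without the strand setting of the counting their reads cannot be told apart.

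Atf3, a stress-induced partner of JUN, had 143 counts at 15 min against 65 at 0 min in KO, a log2 ratio of 1.71 (1.27 to 2.15). Junb (chromosome 8, 84976909 to 84978748) was at 67.5, 175, 101 and 52.3 CPM over time in KO and at 51.4, 191, 185 and 149 CPM in WT. At 15 min the genotypes were close, and at 45 and 60 min KO was well below WT. Fosb, a relative of Fos, had 114 counts at 15 min against 70 at 0 min in KO (log2 ratio 1.27, 0.83 to 1.72). The other 5 AP-1 genes were between 0.49 and 0.95. Among them Fosl2 had 2302 counts at 15 min against 2431 at 0 min, a ratio of 0.49 (0.41 to 0.57) on deep counts, and Jund, which is usually made at a steady level, was at 0.64 (0.41 to 0.87).

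Of the 14 EGR and IER genes 9 were higher and none lower, the largest share among the 21 lists of response genes, with a list median of 1.37. EGR proteins are zinc finger transcription factors that serum and growth factors switch on, and IER genes are other immediate early genes with short transcription units. Egr1 (chromosome 18, 34859823 to 34864984) was at 215, 571, 168 and 78.0 CPM in KO at 0, 15, 45 and 60 min and at 198, 308, 124 and 83.6 CPM in WT. Its KO ratio was 1.41 (1.32 to 1.51) and its WT ratio 0.64 (0.53 to 0.75). Egr2 (chromosome 10, 67535475 to 67542188) had 388 counts at 15 min against 194 at 0 min in KO (log2 ratio 1.57, 1.32 to 1.82), Egr3 299 counts at 15 min against 165 at 0 min (log2 ratio 1.43, 1.15 to 1.71), and Egr4 24 counts at 15 min against 3 at 0 min (log2 ratio 3.57, 1.85 to 5.94). Egr4 had the largest ratio of the family, on few counts. All 4 family members were thus higher in KO at 15 min, and all 4 were lower again at 45 and at 60 min than at 15 min.

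Arc (chromosome 15, 74669083 to 74672570), best known as an early gene of active neurons, was at 23.2, 129.8, 29.0 and 17.0 CPM over time in KO and at 18.6, 46.1, 14.2 and 17.1 CPM in WT. Its ratio was 2.49 (2.22 to 2.76) in KO and 1.31 (0.98 to 1.66) in WT. Ier2 (chromosome 8, 84661331 to 84662852) was at 49.5, 184, 67.3 and 37.4 CPM in KO and 49.6, 102, 56.5 and 49.4 CPM in WT, with ratios of 1.89 (1.70 to 2.08) in KO and 1.03 (0.82 to 1.25) in WT. Both genes started at similar levels in the genotypes and stood higher in KO at 15 min. Nr4a1, a nuclear receptor without a known ligand, had 896 counts at 15 min against 483 at 0 min in KO (log2 ratio 1.46, 1.30 to 1.62). Its relatives Nr4a2 and Nr4a3 were not called, with Nr4a3 at -0.21 (-0.79 to 0.36) in KO against 1.96 (1.05 to 2.97) in WT. Ier5 had 724 counts at 15 min against 434 at 0 min in KO (log2 ratio 1.31, 1.13 to 1.48).

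Ier3 (chromosome 17, 35821684 to 35822923), a gene that both NF-kB and serum factors are known to control, went another way. It was at 16.4, 40.9, 59.1 and 33.5 CPM over time in KO and at 15.2, 80.3, 79.8 and 68.6 CPM in WT. The KO ratio of 1.32 (0.96 to 1.68) was called higher, the WT ratio was 2.40 (2.06 to 2.75), and KO was below WT at each time after 0 min.

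**Figure D2:**
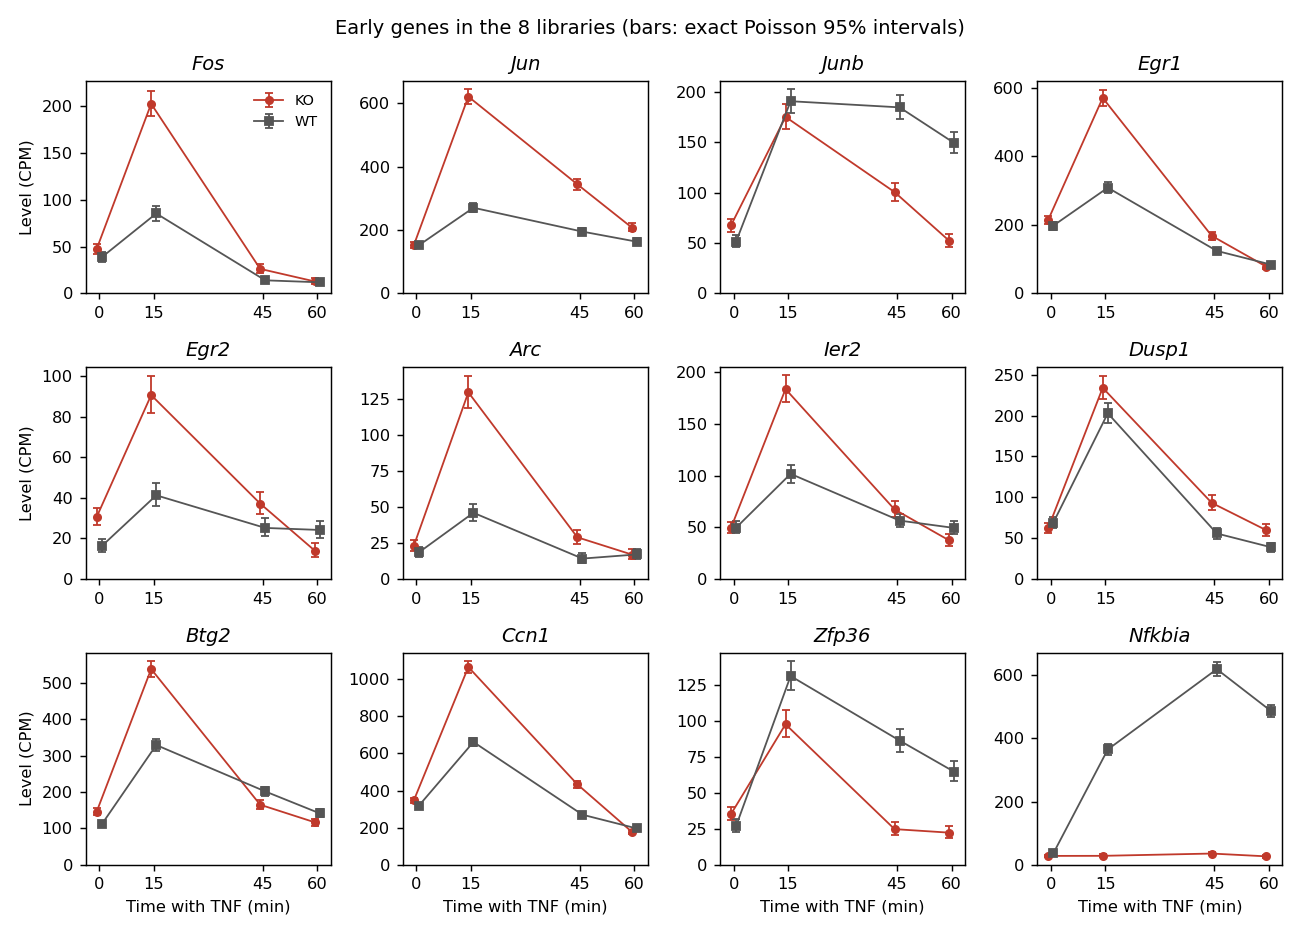
Level in CPM (vertical axes, each from 0) against time with TNF in min for 12 genes in KO (red circles) and WT (grey squares), 1 library a point, with exact 95% Poisson intervals. All 11 early genes other than Nfkbia peak at 15 min in both genotypes, and Nfkbia stays between 26.7 and 35.6 CPM in KO while it climbs to 619 CPM in WT.

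The promoters of 6 of these higher genes are shown because each holds a short motif of a factor that MAP kinases are known to act on. It is the CArG box of serum response factor or the cAMP response element (CRE, TGACGTCA) bound by CREB and ATF proteins. Of the 20 leading higher genes 16 had a window, and the CArG box, the CRE and an NF-kB site were in 3 each. Those with the NF-kB site, Fos, Ier3 and Nr4a1, are not shown, so the display does not favour 1 factor over another. The windows shown run from 250 bases before to 50 bases after a RefSeq start on the mm10 build (GRCm38.p6). They are read 5′ to 3′ on the strand of the gene, with the motif in capitals. The first 3 hold a CArG box, found by name on both strands. Actg1 codes for a cytoplasmic actin, and its motif begins at base -90 from the start. That of Zfp36 begins at -58, and that of Egr2 at -72 in the window shown, 1 of several for this gene.
Actg1, chr11:120348446-120348745 (minus strand): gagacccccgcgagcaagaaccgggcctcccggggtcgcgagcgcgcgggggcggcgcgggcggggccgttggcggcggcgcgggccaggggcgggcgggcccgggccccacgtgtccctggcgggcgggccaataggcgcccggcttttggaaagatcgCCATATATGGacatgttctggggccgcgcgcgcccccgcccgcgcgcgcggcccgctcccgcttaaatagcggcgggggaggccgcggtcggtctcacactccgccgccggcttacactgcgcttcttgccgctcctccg
Zfp36, chr7:28379179-28379478 (minus strand): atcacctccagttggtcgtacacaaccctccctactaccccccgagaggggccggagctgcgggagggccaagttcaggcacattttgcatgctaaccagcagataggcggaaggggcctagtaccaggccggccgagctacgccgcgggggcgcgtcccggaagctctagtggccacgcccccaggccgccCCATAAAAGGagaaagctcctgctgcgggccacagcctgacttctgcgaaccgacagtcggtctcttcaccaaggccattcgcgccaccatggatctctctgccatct
Egr2, chr10:67537619-67537918 (plus strand): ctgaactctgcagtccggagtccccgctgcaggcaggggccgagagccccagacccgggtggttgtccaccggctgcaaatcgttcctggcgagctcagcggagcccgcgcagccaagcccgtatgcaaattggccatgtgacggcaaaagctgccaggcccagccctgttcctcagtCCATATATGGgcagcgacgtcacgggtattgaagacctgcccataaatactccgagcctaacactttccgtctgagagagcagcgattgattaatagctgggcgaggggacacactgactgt
The other 3 hold the CRE, which begins at -166 in Btg2, at -143 in Dusp1 and at -12 in Ppp1r15a.
Btg2, chr1:134079106-134079405 (minus strand): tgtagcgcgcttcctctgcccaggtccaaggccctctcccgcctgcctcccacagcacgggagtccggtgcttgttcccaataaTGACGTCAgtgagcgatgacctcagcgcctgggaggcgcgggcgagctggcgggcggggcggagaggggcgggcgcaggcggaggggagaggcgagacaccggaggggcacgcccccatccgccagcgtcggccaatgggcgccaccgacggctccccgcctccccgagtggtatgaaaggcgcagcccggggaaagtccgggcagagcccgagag
Dusp1, chr17:26508423-26508722 (minus strand): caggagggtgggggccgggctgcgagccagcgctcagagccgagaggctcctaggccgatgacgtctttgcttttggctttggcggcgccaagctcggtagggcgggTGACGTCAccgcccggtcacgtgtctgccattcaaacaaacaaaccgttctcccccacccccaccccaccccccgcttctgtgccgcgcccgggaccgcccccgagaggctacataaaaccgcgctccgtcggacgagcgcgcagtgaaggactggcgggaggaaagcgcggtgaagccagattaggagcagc
Ppp1r15a, chr7:45526219-45526518 (minus strand): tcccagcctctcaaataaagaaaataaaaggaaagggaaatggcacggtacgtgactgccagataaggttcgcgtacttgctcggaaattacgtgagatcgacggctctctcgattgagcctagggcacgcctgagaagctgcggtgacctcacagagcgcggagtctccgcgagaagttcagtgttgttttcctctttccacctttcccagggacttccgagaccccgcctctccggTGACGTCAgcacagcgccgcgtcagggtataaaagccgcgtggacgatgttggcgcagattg

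Windows could be matched by symbol for 49 of the 90 higher genes and for 9292 of the compared genes. A CArG box was in 4 of the 49 (8.16%), against 1.65% of the compared genes and 1.63% of all 32851 windows, and in 3 of the 43 (6.98%) matched among the lower genes that were high at 0 min alone. The CRE was also in 4 (8.16%), against 3.71% of the compared genes and 1.79% of all windows, and in 0 of those 43. The NF-kB site, searched by name on both strands, was in 8 (16.3%), against 6.24% of the compared genes and 4.51% of all windows. It was in 7 of the 43 (16.3%) as well, and neither this share nor that of the CArG box was particular to the higher genes. For the CRE, 4 of 49 and 0 of 43 are too few to call its share particular to them either. Higher genes that hold this NF-kB site included Fos, Ier3 and Nr4a1. The AP-1 site TGANTCA was in 3 (6.12%, against 5.87% and 7.81%), and the SP1 site GGGCGG in 34 (69.4%, against 71.2% and 35.7%). Among 95 matched of the other 147 lower genes, the CArG box was in 2 (2.11%), the CRE in 4 (4.21%) and the NF-kB site in 6 (6.32%). Shares of all windows count each window, while the other shares count a gene if any of its windows holds the motif. All these shares describe letters in a window and rest on few genes. A window without a match says nothing of the factor.

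Genes that damp the MAP kinase branch were among the higher ones. Dusp1 (chromosome 17, 26505590 to 26508519), a phosphatase that switches off p38 and JNK, was at 62.5, 234, 93.2 and 59.8 CPM in KO at 0, 15, 45 and 60 min and at 68.9, 203, 55.7 and 38.8 CPM in WT. The ratios of 1.90 (1.74 to 2.08) in KO and 1.56 (1.39 to 1.73) in WT were both called. Dusp5, a nuclear ERK phosphatase, was just past the threshold in KO with 227 counts at 15 min against 167 at 0 min (log2 ratio 1.01, 0.72 to 1.31). It was short of it with total counts as the scale, at 0.97 without the 3 gene models. The other 13 of 15 phosphatase and ERK feedback genes were not called, and the list median was 0.46.

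Of 12 regulators of mRNA decay, 2 were higher. Btg2 (chromosome 1, 134075170 to 134079120), an antiproliferative gene that promotes removal of poly(A) tails, was at 146, 539, 165 and 117 CPM over time in KO and at 111, 329.6, 202 and 142 CPM in WT. Its ratio was 1.88 (1.77 to 1.99) in KO and 1.57 (1.43 to 1.70) in WT. Zfp36 (chromosome 7, 28376784 to 28379255) codes for tristetraprolin, which marks TNF and other cytokine mRNAs for decay. It was at 35.3, 97.8, 24.8 and 22.4 CPM in KO and 27.0, 131, 86.5 and 64.8 CPM in WT, so that KO was above WT at 0 min and below it at 15, 45 and 60 min. The median of these 12 genes was 0.11, close to the 0.00 of all genes.

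Among 16 growth factors and secreted early genes, 5 were higher in KO. Ccn1 (chromosome 3, 145646976 to 145649981), a matrix protein gene that responds to serum and to tension, was at 347, 1066, 434 and 178 CPM over time in KO and at 319, 662, 270.0 and 196 CPM in WT. Its ratio of 1.62 (1.54 to 1.69) in KO has the narrowest interval of the 20 leading genes. Ccn2, its relative, had 3393 counts at 15 min against 2212 at 0 min (log2 ratio 1.19, 1.11 to 1.26), and it stayed high at 45 min with 763 CPM against 794 CPM at 15 min. Ccn2 overlaps the counted gene Gm15270. Hbegf, a ligand of the EGF receptor, had 232, 331, 999 and 805 counts in KO over the 4 times, and its 15 min ratio was 1.08 (0.83 to 1.33). Edn1, which codes for the vessel-constricting peptide endothelin, was at 1.15 (0.43 to 1.90). Lif, a cytokine gene of the same list, was at 0.07 (-0.29 to 0.42) in KO and 1.19 (0.86 to 1.53) in WT.

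Rhob, a small GTPase gene, was the 1 higher gene among 31 other immediate early regulators, with 995 counts at 15 min against 613 at 0 min (log2 ratio 1.27, 1.12 to 1.41). Myc, a driver of growth, was at 0.80 (0.56 to 1.04) and short of the threshold in KO, as it was in WT at 0.72 (0.41 to 1.04). The same list had 6 higher genes in WT. Of 10 Kruppel-like factor genes, Klf5 passed the threshold in KO, at 1.00 (0.33 to 1.69), but not with total counts as the scale (0.96 without the 3 gene models, 0.65 with them). Klf6, with 1719 counts at 15 min against 1481 at 0 min, was at 0.78 (0.68 to 0.88). Klf10, a TGF-beta-induced repressor, was at 0.36 (-0.04 to 0.75) at 15 min in KO and stood higher later, with 117, 101, 820 and 626 counts over the 4 times.

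Actg1 was the 1 higher gene of 16 in the serum response factor and actin list, at 97.2, 259, 64.2 and 61.0 CPM over time in KO. Its KO ratio was 1.41 (1.27 to 1.56) and its WT ratio 0.99 (0.82 to 1.16). Vcl, the focal adhesion gene vinculin, was at 0.69 (0.63 to 0.76) in KO and 0.76 (0.69 to 0.83) in WT, on 4154 and 3815 counts at 15 and 0 min in KO, though it overlaps the counted gene Ap3m1. Ppp1r15a, which restarts translation after stress, was the 1 higher gene of 13 in the unfolded protein list, at 1.28 (1.07 to 1.49). Of 15 p53 targets, Btg2 and Pmaip1, the gene of the death factor NOXA, were higher, the second at 1.10 (0.83 to 1.38). Of 20 cholesterol synthesis genes, Idi1 was higher at 1.22 (0.60 to 1.85), and the list median was 0.34. No gene of the 10 heat shock genes was called, the highest being Hsp90aa1 at 0.74 (0.45 to 1.04).

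Apol8, of the apolipoprotein L family, had the largest ratio among genes with at least 50 counts. It was at 5.21, 42.6, 5.89 and 4.36 CPM in KO at 0, 15, 45 and 60 min and at 4.95, 27.8, 5.50 and 3.65 CPM in WT, so its 15 min peak was present in both genotypes and gone by 45 min. Its ratio was 3.03 (2.49 to 3.61) in KO and 2.49 (1.90 to 3.13) in WT. Rnf225, a RING finger gene, was at 8.52, 22.0, 13.5 and 10.1 CPM over time in KO and at 8.66, 9.52, 10.4 and 8.84 CPM in WT. It was the 1 gene of the 20 leading genes whose WT interval, at 0.14 (-0.46 to 0.74), included 0. Arid5a, an RNA-binding protein gene that stabilises inflammatory mRNAs, and Tpt1, a translation-related gene, were also higher, at 1.14 (0.96 to 1.32) and 1.14 (0.91 to 1.38). Tpt1 overlaps the small RNA gene Snora31. These last 2, and the gene models named below, were picked after their values were seen.

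The genes that NF-kB is best known to control gave other values. Nfkbia (chromosome 12, 55489411 to 55492647), the gene of the inhibitor IkB-alpha, had 121 and 178 counts in KO at 15 and 0 min, against 1916 and 204 in WT at these times. Its ratio was 0.01 (-0.33 to 0.35) in KO and 3.34 (3.13 to 3.55) in WT. Tnfaip3, which codes for the feedback inhibitor A20, was at -0.36 (-1.18 to 0.41) in KO and 3.42 (3.14 to 3.72) in WT. Irf1, an interferon regulatory factor, was at -0.06 (-0.41 to 0.29) in KO and 2.48 (2.28 to 2.70) in WT. In KO all 3 were thus near or below their 0 min level, with intervals that include 0. Of 14 NF-kB feedback regulators, Otud1, a deubiquitinase gene with 41 counts at 15 min against 28 at 0 min, was the 1 higher in KO, and the list median was -0.15 in KO against 0.84 in WT. No gene of the 5 NF-kB subunit genes was called in either genotype at 15 min.

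Cxcl1 (chromosome 5, 90891241 to 90893115), which codes for a neutrophil-attracting chemokine, was called higher in KO too. It was at 10.6, 23.9, 4.63 and 5.54 CPM in KO at 0, 15, 45 and 60 min, against 8.66, 109.9, 107 and 81.1 CPM in WT. The call is lost with the total of all genes as the scale, where the KO ratio is 0.82. The KO library at 15 min was above both its 0 min value and its later values, with a ratio of 1.17 (0.72 to 1.64) against 3.67 (3.24 to 4.12) in WT. Ccl2 and Ccl7, monocyte-attracting chemokines, were at 0.51 (-0.36 to 1.38) and 0.67 (0.17 to 1.18) in KO, and at 2.81 (2.50 to 3.14) and 2.41 (2.14 to 2.70) in WT. Of 6 chemokines compared, 1 was higher in KO and 4 in WT. Icam1 and Vcam1, which let leukocytes adhere, were at 0.24 (-0.21 to 0.68) and 0.09 (-0.08 to 0.26) in KO, and at 0.73 (0.28 to 1.18) and 1.09 (0.96 to 1.23) in WT.

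The KO ratio was set against the WT ratio for each gene with at least 20 counts in the highest of the 4 libraries, again with a counting interval. Of 13520 genes, the KO ratio was larger at least 2-fold in 172 (1.27%) and the WT ratio in 150 (1.11%). Of the 172, only 25 were among the 90 genes called higher in KO, and the rest were not called in KO. A larger KO ratio is thus not in itself a rise in KO, since a lower WT ratio gives it too. Of these 150, 58 were genes called lower in KO, 19 of them high in the KO 0 min library alone, and 40 were called higher in WT. Acan and Col2a1, of the cartilage genes high in that library, were at -4.86 and -4.43 as a log2 difference of KO minus WT. On the same scale, Tnfaip3 was at -3.79 (-4.65 to -2.95), Nfkbia at -3.33 (-3.73 to -2.92), Irf1 at -2.54 (-2.95 to -2.13), Cxcl1 at -2.49 (-3.14 to -1.85) and Ccl2 at -2.30 (-3.23 to -1.37). These genes had the larger ratio in WT by a wide margin over counting error. Ier3 also had the larger ratio in WT, at -1.08 (-1.59 to -0.58), as did Gadd45b, a stress gene, at -1.43 (-1.97 to -0.89). Zfp36 and Junb pointed the same way but did not pass 2-fold, at -0.81 (-1.17 to -0.46) and -0.52 (-0.78 to -0.26).

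Jun and Arc were on the other side, with larger ratios in KO, at 1.20 (1.04 to 1.36) and 1.17 (0.73 to 1.61). Rnf225 passed as well, at 1.23 (0.44 to 2.02). Fos, Ier2 and Egr1 were short of 2-fold at 0.95 (0.64 to 1.26), 0.86 (0.57 to 1.14) and 0.77 (0.62 to 0.92), and each of these intervals lay above 0. Intervals included 0 for Apol8 at 0.54 (-0.31 to 1.38), Atf3 at 0.41 (-0.26 to 1.07), Egr2 at 0.22 (-0.23 to 0.67) and Nr4a1 at 0.17 (-0.11 to 0.45), so no difference between the genotypes was detectable at this depth. The interferon response genes, none of which was called in KO, had 3 members with the larger ratio in KO, among them Ifit1 at 1.21 (0.48 to 1.94) and Isg15 at 1.17 (0.26 to 2.08). Both are antiviral genes, and their values in WT were -0.84 (-1.19 to -0.48) and -0.65 (-1.07 to -0.24) at 15 min. The mitochondrial transcript mt-Nd1 was also among those with the larger ratio in KO, at 1.34 (1.10 to 1.59), with 458 and 565 counts in KO at 15 and 0 min and 448 and 1019 in WT. Its value in WT was -1.08 and in KO 0.27, and the part of fraction purity in these differences was not tested.

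**Figure D3:**
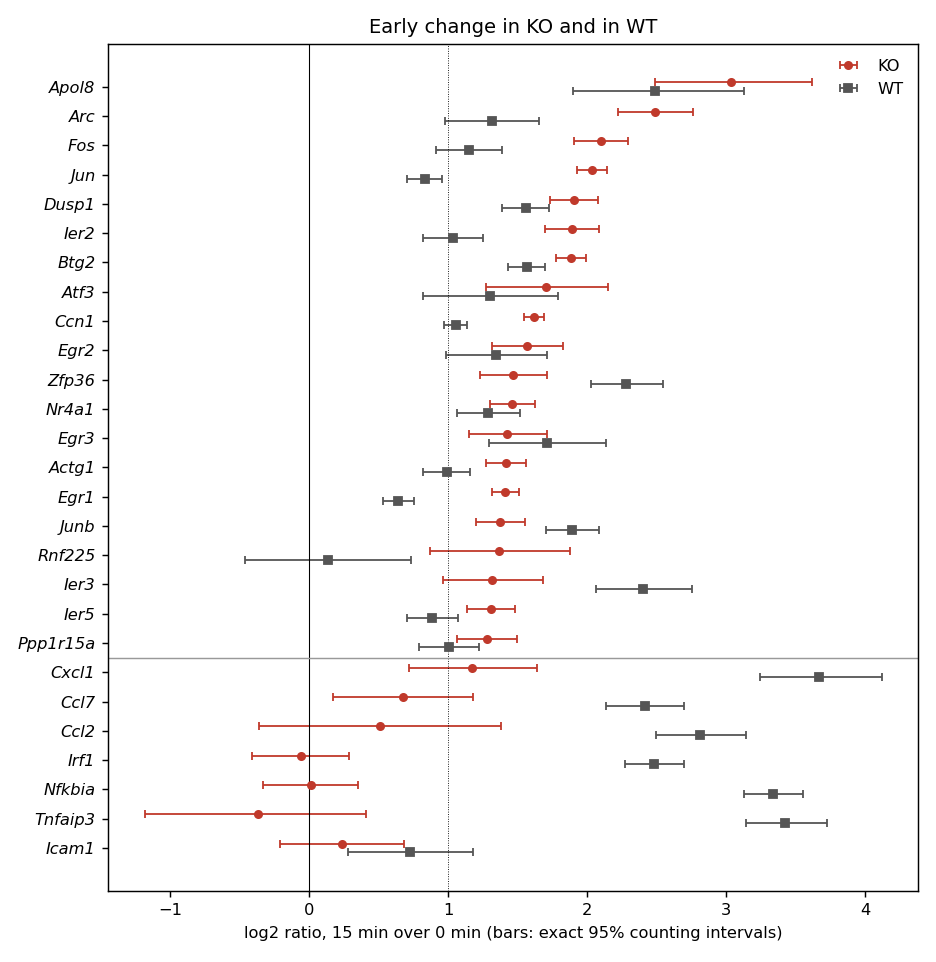
Log2 ratio of 15 min over 0 min (horizontal axis) in KO (red circles) and WT (grey squares) with exact 95% counting intervals. Above the grey line are 20 leading KO genes with at least 50 counts, of which Rnf225 alone has a WT interval that includes 0, and below it 7 known NF-kB target genes, of which Nfkbia and Tnfaip3 show the widest gap. The dotted line marks 2-fold.

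The higher genes shared properties that the rule did not use. Their median span in the genome was 3460.5 bases, against 21802 for all compared genes, and 64 of 90 (71.1%) spanned under 10 kb, against 30.1%. The 147 lower genes not high at 0 min alone were also shorter than all compared genes. Their median span was 12477 bases and 41.5% were under 10 kb, so shortness in itself was not particular to the higher genes, though more marked in them. Single-exon genes made up 31 of the 90 (34.4%), against 10.2% of the compared genes. The share of short genes was 82.1% among the 39 higher genes with at least 50 counts, against 25.5% of all genes so deep. Predicted gene models, which tend to be short and low, were 32 of the 90 (35.6%, against 12.7% of the compared genes) and 7 of these 39 (17.9%, against 8.38% of all genes so deep). They were also 31 (21.1%) of the 147 lower genes not high at 0 min alone. Pairs of neighbours within 10 kb that shared the call included Jun with Gm12703 and Ccn1 with Gm17501, a gene model that starts close upstream of it on the other strand.

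All of the 39 deeper genes were above 0 in WT as well, with a WT median of 1.01, and 20 of them passed the rule there. Among all compared genes so deep, 52.98% were above 0 in WT, 0.503% were called higher there and the WT median was 0.02. Of all 90, 66 (73.3%) were above 0 in WT and 23 were called higher, which is 25.6% of the KO list and 18.1% of the WT list. Over all compared genes these shares were 50.9% above 0 and 0.687% called higher. The KO 15 min level was above the WT 15 min level in 33 of the 39, against 52.5% of all compared genes with at least 50 counts, and the KO 0 min level was above the WT 0 min level in 29 of them, against 54.4%. The genes were chosen for a high KO 15 min value, so the first of these counts favours KO.

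Most of the higher genes came down within the hour. Of the 39, 33 stood lower at both 45 and 60 min than at 15 min in KO, against 38.9% of all compared genes with at least 50 counts, and the choice of genes by their 15 min value favours this too. The median change of the 39 relative to 15 min was -0.85 at 45 min and -1.58 at 60 min on the log2 scale. At 60 min 21 of the 39 (53.8%) were below their own 0 min level, against 51.0% of all compared genes so deep. Their median at 60 min relative to 0 min was -0.23, against -0.01 for all genes so deep. The choice of genes with a KO 0 min value low beside that at 15 min works against both. Among the 6 that did not stand lower at both later times were Arid5a, Hbegf, Idi1, Ier3 and the gene model Gm14005, each of which was higher at 45 min than at 15 min in KO.

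**Figure D4:**
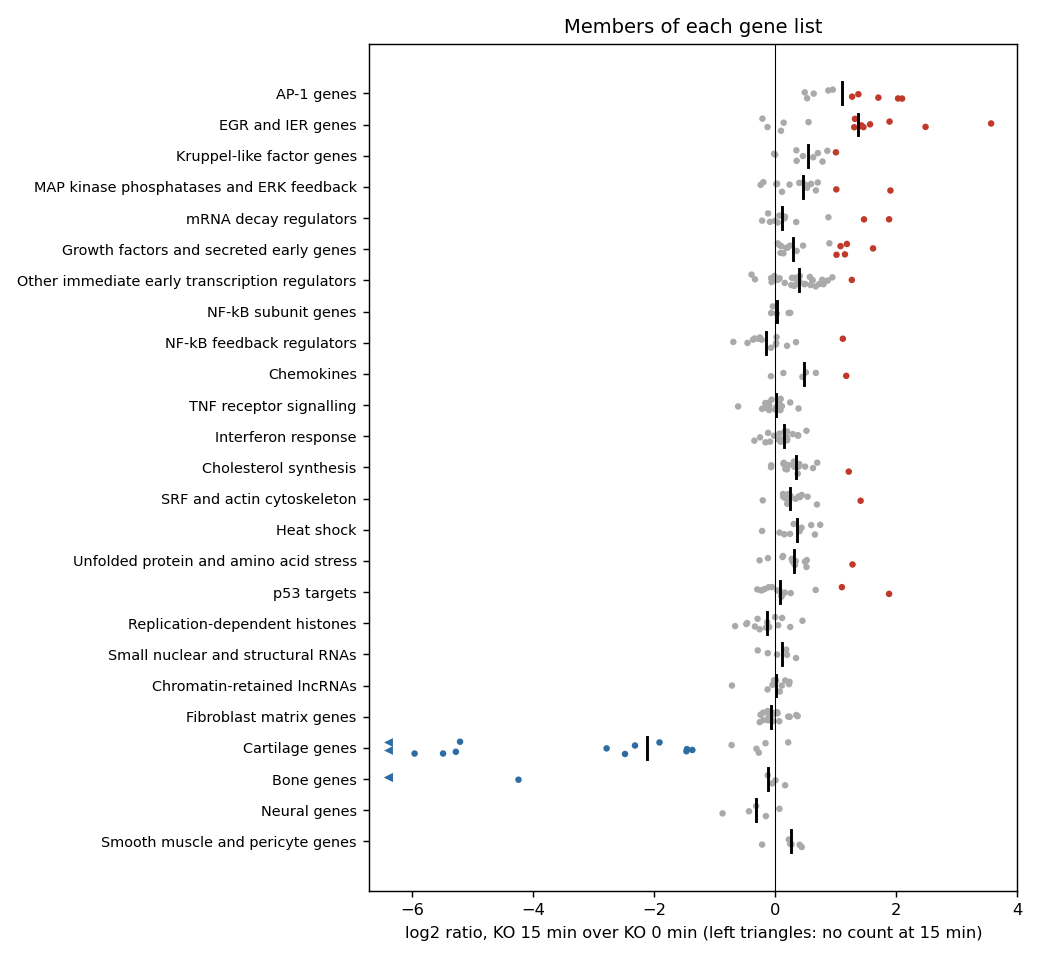
Log2 ratio of KO 15 min over KO 0 min (horizontal axis) for the members of each gene list with at least 5 compared genes, 1 point a gene, with red for higher, blue for lower and grey for genes not called. Black bars are list medians, at 1.11 for AP-1 genes, 1.37 for EGR and IER genes and -2.11 for cartilage genes, and triangles at the left edge are genes with no count at 15 min.

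Some of the other lists lay close to the centre. The medians were 0.01 for 24 TNF receptor signalling genes, 0.14 for 19 interferon response genes, -0.14 for 14 replication-dependent histones, 0.02 for 11 chromatin-retained long noncoding RNAs, 0.11 for 6 small structural RNAs and -0.06 for 21 fibroblast matrix genes, and none of these lists had a called gene in KO. Other lists with no or 1 called gene lay above the centre. Their medians were 0.36 for heat shock, 0.34 for cholesterol synthesis, 0.32 for unfolded protein and 0.24 for actin genes. Of the 10 heat shock genes 9 were above 0, against 50.4% of all compared genes. With the total of all genes as the scale, 16 of 32 list medians changed sign, while those of the AP-1 genes and of the EGR and IER genes remained at 0.76 and 1.01.

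The lower genes fell into a group that was high in the KO 0 min library alone and a wider group near the threshold. The first holds 65 genes (0.502% of those compared), each at least 2-fold above every one of the other 7 libraries with its interval excluding equality. Since they were chosen for their 0 min level, their ratios are a description. Cartilage genes led it: of 18 compared, 13 were lower at 15 min, and the same 13 were high at 0 min alone. Col2a1 (chromosome 15, 97975602 to 98004695), the main collagen gene of cartilage, had 5219, 91, 114 and 389 counts in KO at 0, 15, 45 and 60 min, against 27, 14, 15 and 17 in WT. Its log2 ratio of 15 min to 0 min was -5.27 (-5.59 to -4.97). Acan, the gene of the cartilage proteoglycan aggrecan, had 664, 10, 18 and 61 counts in KO and 5, 3, 6 and 5 in WT. Col9a1, a collagen on the surface of cartilage fibrils, had 328, 6, 4 and 19 in KO and 0, 0, 1 and 0 in WT. All 3 were highest at 0 min and next highest at 60 min within KO, and every WT library was far below the KO 0 min library. The ratios were -5.48 (-6.55 to -4.60) for Acan and -5.20 (-6.66 to -4.07) for Col9a1.

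The other collagens of the group and Comp had smaller ratios. Comp, a matrix protein gene of cartilage and tendon, was at -2.78 (-3.45 to -2.18), Col9a2 at -2.48 (-3.13 to -1.89), Col9a3 at -2.31 (-2.89 to -1.78) and Col11a2 at -1.46 (-1.68 to -1.25). Hapln1, which links aggrecan to hyaluronan, had 82 counts at 0 min and none at 15 min, so it was at least 18.4-fold lower at 15 min with the floor set at 3 counts. The regulators of cartilage fate gave other values: Sox9 was at -0.31 (-0.68 to 0.06), Sox5 at 0.22 (-0.11 to 0.54) and Sox6 at -0.27 (-0.65 to 0.10), none of them called. Summed over the list, cartilage genes were at 803 CPM in the KO 15 min library and 2092 CPM in the KO 0 min library, against 640 and 786 CPM in WT. The other KO libraries were at 773 and 720 CPM at 45 and 60 min. Fewer cells of a type and less RNA per cell cannot be told apart in such bulk libraries, and the part of other cells in the 0 min library was not tested.

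Genes of bone, airway and gland stood beside them. Ibsp, bone sialoprotein, had 338 counts in the KO 0 min library and 0 in each of the other 7, which makes it at least 76.0-fold lower at 15 min. Alpl, the mineralising phosphatase, had 128, 0, 2 and 1 counts in KO over the 4 times, and Sp7, a regulator of bone-forming cells, 56, 2, 0 and 0. By contrast Runx2, another bone regulator, was at 0.17 (-0.09 to 0.42) and Spp1 at -0.12 (-0.32 to 0.08). Of 7 bone genes compared, 3 were lower. Tg (chromosome 15, 66670753 to 66850721), the gene of thyroglobulin, the precursor of thyroid hormone, had 331, 17, 20 and 27 counts in KO and 27, 27, 39 and 44 in WT, a log2 ratio of -3.71 (-4.51 to -3.01). Nkx2-1, a regulator of thyroid and lung, had 21 counts at 0 min in KO and none elsewhere.

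Some of the lowest genes are known from lung epithelium. Sftpc and Sftpb, the surfactant protein genes, had 71, 1, 0 and 0 and 51, 0, 0 and 0 counts in KO at the 4 times, and none in any WT library. Scgb3a2 and Cyp2f2, of secretory airway cells, had 131 and 92 counts at 0 min in KO and none at 15, 45 or 60 min. No lung list was fixed, and these 4 genes were named by the rule on the lowest genes. Aqp5, a water channel gene of lung and gland epithelium chosen after its values were seen, was called lower but was not high at 0 min alone, with 29, 9, 20 and 17 counts in KO and 4, 5, 5 and 5 in WT. The epithelial markers Cdh1, Krt18 and Krt19 had 0 and 33, 5 and 35 and 23 and 113 counts in KO at 15 and 0 min, and were the 3 epithelial genes compared and all lower. Summed over 13 epithelial markers, the KO 15 min library was at 6.55 CPM and the KO 0 min library at 42.4 CPM, against 2.83 to 3.46 CPM in the WT libraries. Skeletal muscle, neural, endothelial, leukocyte, adipocyte and smooth muscle lists had no called gene, but only 3, 5, 4, 1, 3 and 6 genes compared. Of all compared genes 0.695% were higher and 1.64% lower, so no call in lists this small says little of these cell types. No erythroid or hepatocyte gene had enough counts to be compared.

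The 65 genes together held 0.0180% of the counts of the KO 15 min library and 0.192% of those of the KO 0 min library. No count was found at 15 min for 19 of them, and 16 had no count in any WT library. None of the 65 was called in WT at 15 min against 0 min, where 0.687% of all compared genes were higher and 1.02% lower. Their choice for WT levels below the KO 0 min library leaves fewer counts for a call there, so this says little of them. Set against the other 3 KO libraries alone, 88 genes were high at 0 min. The overlapping genes Chad with Acsf2, Smpd3 with Prmt7 and Col9a3 with Tcfl5 are uncertain here, since the strand setting is not given in the sources used.

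**Figure D5:**
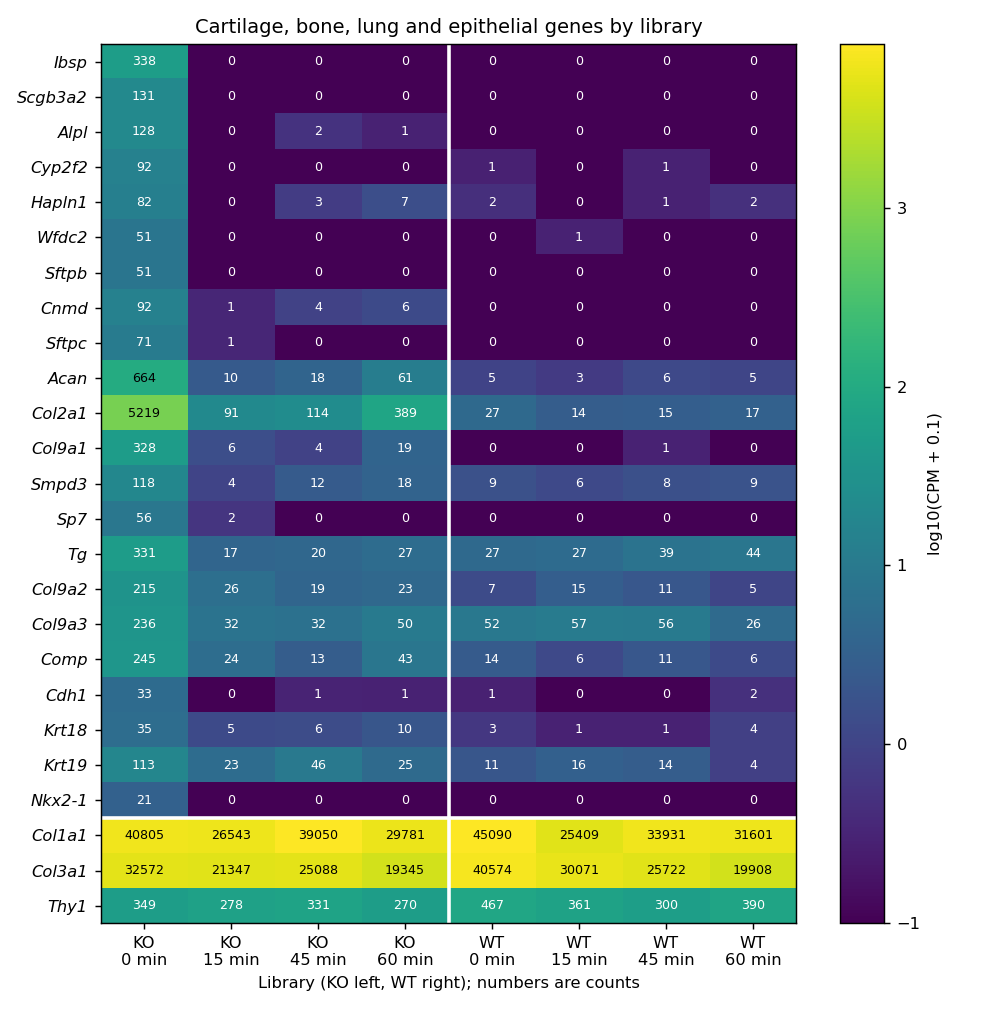
Counts (numbers in the cells) and log10 of CPM plus 0.1 (colour) of cartilage, bone, lung, thyroid and epithelial genes in the 4 KO libraries and the 4 WT libraries, with Col1a1, Col3a1 and Thy1 as fibroblast genes in the lowest rows. The KO 0 min column stands out in the upper rows, with 5219 counts of Col2a1 against 14 to 389 in the other libraries, while the fibroblast rows are filled in all 8.

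The remaining 147 lower genes were mostly low and close to the threshold. Only 35 had at least 50 counts, 107 were between 2-fold and 3-fold lower, and none had as many as 400 counts in the pair together. Of the 147, 11 (7.48%) were called lower in WT as well, against 1.02% of all compared genes, and 1 (0.680%) was called higher there, against 0.687%. Apoe, a lipid carrier of macrophages and other cells, had 121, 26, 28 and 28 counts in KO at 0, 15, 45 and 60 min, against 226, 113, 149 and 132 in WT. It stayed low in KO after 15 min, and its ratio was -1.65 (-2.32 to -1.03). Enpp2, which codes for the lysophosphatidic acid-making enzyme autotaxin, had 101, 26, 39 and 33 counts in KO (log2 ratio -1.39, -2.07 to -0.76). Sgms2, a sphingomyelin synthase gene, had 211, 60, 147 and 148, with a ratio of -1.25 (-1.68 to -0.83), on the deepest counts of the named genes in this group.

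Mis12, a cell division gene whose protein acts at the kinetochore, had 87, 25, 34 and 47 counts in KO over the 4 times, with a 15 min ratio of -1.23 (-1.93 to -0.57). Ndufaf4, an assembly factor of respiratory complex I, was lower in both genotypes, at -1.73 (-2.81 to -0.78) in KO and -1.19 (-2.17 to -0.29) in WT. Kcna6, a potassium channel gene, was also lower in both, at -1.27 in KO and -1.10 in WT. Mis12 overlaps Derl2, Zswim1 overlaps Spata25 and Alx4 overlaps Ext2. The other named genes, Alx4, Zswim1, Mamdc2, Mr1, Zfp511, Pdp2 and Jam2, were between -1.39 and -1.24. Krt19 would have joined the 65 but for 46 counts at 45 min in KO.

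The lower genes differed in their later course. All of the 65 were below their 0 min level at both 45 and 60 min in KO, as the rule requires. Of the 147, 108 (73.5%) were below it at both times, against 39.5% of all compared genes, and their median was -0.56 at 45 min and -0.57 at 60 min relative to 0 min. At 0 min KO was above WT in 114 of the 147 (77.6%), against 53.2% of all compared genes. Both counts are favoured by the choice of genes with a high KO 0 min value.

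Genes near the limits of the rule show how far it decides a call. With the total of all genes as the scale 57 of the 90 higher genes were no longer called, among those named Arid5a, Ccn2, Cxcl1, Dusp5, Edn1, Fosb, Gm14005, Gm17501, Hbegf, Idi1, Ier3, Ier5, Klf5, Otud1, Pmaip1, Ppp1r15a, Rhob and Tpt1. With the total without the 3 gene models 12 were no longer called, among them Dusp5 (0.97), Gm14005 and Klf5. Just inside 2-fold were Klf5 and Dusp5, and just outside were Ch25h, with 39 counts at 15 min and 29 at 0 min in KO and a ratio of 0.996, and Gem, with 49 and 37 counts and a ratio of 0.97. At the count limit, 121 genes had exactly 20 counts in the higher library, of which 5 were higher and 11 lower. Of 127 genes with 19 counts, 2 and 10 would have passed the fold and the interval.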

How the data were processed

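Per library, 400 ng of chromatin-associated RNA from primary fibroblasts went through removal of ribosomal RNA, a stranded kit and 12 PCR cycles, and was read as single ends of 50 bp, per the labels' protocols. The submitters' processing notes name cutadapt 1.12, STAR, featureCounts 1.5.0, DESeq2 and the build mm10. The authors deposited whole-number counts per gene, 1 column a library, with gene coordinates and exon lengths, per the file headers. How strand and multiply mapped reads were handled, and which gene annotation was counted, is not given in sources used here, which leaves overlapping genes uncertain.

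Gm26917, Gm42418 and Gm23935 were left out, and counts were scaled by TMM (edgeR 4.0.16, R 4.3.3) over the 15046 genes that reached 10 counts in 2 or more libraries. The TMM factors ran from 0.951 to 1.04. Ratios of 2 libraries carry exact Clopper-Pearson intervals at 95%, levels exact Poisson intervals, and the KO ratio over the WT ratio an exact conditional interval. Reads copied by PCR are not independent molecules, so intervals and the floor of 3 counts, 0.473 to 0.702 CPM, cover counting error only. No 2 libraries were alike within sampling noise, with a chi-square per degree of freedom of 4.20 to 24.5. With 1 library a group no test between groups was made. The ratio and the interval were tested on simulated counts.

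Named genes are the 20 highest called genes with at least 50 counts, the 15 lowest called genes that were high in the KO 0 min library alone and the 15 lowest others, all without predicted gene models, then a set of 25 early, NF-kB and cartilage genes, and the 4 members of each list farthest from 0. Some genes that the rule names are not reported here. A row was given a symbol by its identifier in 98.8% of cases. The 34 gene lists (21 of response genes, 13 of cell type markers), the rule and the genes were chosen with earlier results of these data known. Snhg1 of 1 list was not matched. Alternatives were total counts with and without the 3 genes, DESeq2 1.42.0 size factors, limits of 10 and 50 counts, and 1.5-fold and 3-fold thresholds. Those for the KO ratio over the WT ratio and for gene span were added after the data were seen. Medians over later times use CPM plus 0.5. Promoter windows are from RefSeq. Figures were drawn with matplotlib 3.10.9.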

Additional observations from a re-analysis of the deposited data

Results flagged for a closer look

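Rwdd1, a gene of the RWD domain family, went opposite ways in the genotypes between 0 and 15 min. It had 25 counts at 15 min and 17 at 0 min in KO, a log2 ratio of 1.12 (0.18 to 2.11), against 16 and 41 counts in WT, a ratio of -1.25 (-2.18 to -0.39). Snora2b, a small nucleolar RNA gene that overlaps Kansl2, had 7 and 25 counts in KO at 15 and 0 min, a ratio of -1.27 (-2.72 to -0.02), against 21 and 7 counts in WT, a ratio of 1.69 (0.40 to 3.17). With 1 library a group the difference between the genotypes was not tested beyond counting error, for which the log2 difference of KO minus WT was 2.37 (1.04 to 3.72) for Rwdd1 and -2.96 (-4.95 to -1.04) for Snora2b. Both genes are low, and their intervals are not adjusted for the number of genes compared.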

How the results depend on the processing

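The counts of genes depended on the scale and on the limits. With the total of all genes as the scale, 33 genes were higher and 566 lower in KO, 48 and 700 in WT, and 491 were lower without being high in the KO 0 min library alone. With a limit of 10 counts 156 genes were higher in KO. A limit of 50 counts gave 39 higher and 68 lower in KO, 63 and 41 in WT, 33 high in the KO 0 min library alone, 35 lower others, and 93 and 87 genes with the larger ratio in KO and in WT. A 1.5-fold threshold gave 301 and 429 in KO, a median span of 5233 bases for the higher genes, 391 and 641 in WT, 351 lower others, and 439 and 314 genes with the larger ratio in KO and in WT. A 3-fold threshold gave 20 and 94 in KO, 35 and 25 in WT, 45 lower others, and 63 and 75 genes with the larger ratio in KO and in WT. The cause of the shift with the scale was not tested beyond the lower median of all genes that it gives, -0.35. The number of genes high in the KO 0 min library alone stayed between 49 and 88 under the alternatives other than the limit of 50 counts. No called gene named here changed sign under another scale. Of 147 named genes with enough counts, 69 moved out of their interval with the total of all genes, 1 with the total without the 3 gene models and 0 with DESeq2 size factors. List medians changed sign in 16, 3 and 0 of 32 lists. No paired analysis was possible because each genotype and time has 1 library, and without the KO 0 min library no early KO comparison remains. Depth limits the KO 15 min library most, where 3 counts stand for 0.702 CPM.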

Other observations

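Some genes that were not called differed between the KO libraries by less than 2-fold, with intervals that exclude equality. H19, an imprinted RNA that restrains growth, was at 1056, 644, 606 and 569 CPM in KO at 0, 15, 45 and 60 min, against 489, 367, 367 and 481 CPM in WT, and its log2 ratio of 15 min to 0 min was -0.71 (-0.78 to -0.65) in KO and -0.41 (-0.50 to -0.33) in WT. Plk2, a kinase gene that p53 and serum factors switch on, was at 0.67 (0.60 to 0.75) in KO and 0.89 (0.80 to 0.98) in WT. Trib1, a pseudokinase gene, was at 0.95 (0.76 to 1.14) in KO and 0.37 (0.13 to 0.60) in WT, and it was highest at 45 min in KO with 743 counts. Vim, the gene of the fibroblast filament protein vimentin, was at 0.35 (0.30 to 0.40) in KO and -0.04 (-0.09 to 0.01) in WT. Bcl3, a nuclear IkB relative with only 28 and 67 counts in KO at 15 and 0 min, was at -0.69 (-1.38 to -0.03) in KO, against 0.78 (0.25 to 1.31) in WT. With the total of all genes as the scale each KO value would be lower by about 0.35, which takes that of Vim to about 0.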
